A study of Homo sapiens with 12 samples.

Results

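The genes described here are 5 metallothioneins (MT1E, MT1F, MT1G, MT1X and MT2A), the zinc-sensing transcription factor MTF1, the zinc exporters SLC30A1 and SLC30A5 and the zinc importers SLC39A10 and SLC39A14. They were taken by name from the table of array probe sets, and all 10 were found, among 19775 genes with a probe set. These genes, and the lists of other genes below, were chosen with earlier results of these data known. Their counts beside the background are therefore a description and not a test. They are measured by 24 probe sets (9 for metallothioneins, 3 for MTF1 and 12 for the transporters), and 21 of these passed a filter on low values, a log2 value over 4 in at least 3 of the 12 arrays. All samples come from HK-2, a single immortalised human cell line derived from the epithelium of the renal proximal tubule. Cells near confluence received a treatment labelled Di, and control cells its vehicle. Expression was measured on Affymetrix arrays after 12 h (3 Di and 3 control arrays) and after 48 h (3 Di and 3 control arrays), and the labels call the replicates biological. What Di is and at what dose it was given is not stated in the sources used here. All 4 groups share the line and a medium with EGF, insulin, transferrin, selenite and the glucocorticoid hydrocortisone.

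Metallothioneins are small cytosolic proteins rich in cysteine that bind zinc and copper and, after exposure, cadmium and other toxic metals. When free zinc rises, the zinc finger protein MTF1 binds short metal response elements in the promoters of metallothionein genes and of SLC30A1, which sends zinc out of the cell, and raises their transcription. Oxidants and glucocorticoids also raise metallothionein transcription. Proteins of the SLC30 family (ZnT) move zinc out of the cytosol, and those of the SLC39 family (ZIP) move it in. Proximal tubule cells are known for large amounts of metallothionein and for the renal uptake of cadmium bound to it.

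The promoters of the genes on which the results turn are shown to let the elements that MTF1 binds be seen in place. The RefSeq table of promoters (build GRCh38.p14) matched 6 of the 10 genes, MT2A, MT1X, MTF1, SLC30A1, SLC30A5 and SLC39A10. MT1E, MT1F, MT1G and SLC39A14 were not matched. Below are the 250 bases before the annotated start of MT2A (chr16:56608334-56608583, plus strand), MT1X (chr16:56682220-56682469, plus strand) and SLC30A1 (chr1:211579162-211579411, minus strand), written 5′ to 3′. Capitals mark matches to TGCACNC or TGCGCNC, the core of the metal response element, on either strand (both cannot match at the same place on a strand).
MT2A: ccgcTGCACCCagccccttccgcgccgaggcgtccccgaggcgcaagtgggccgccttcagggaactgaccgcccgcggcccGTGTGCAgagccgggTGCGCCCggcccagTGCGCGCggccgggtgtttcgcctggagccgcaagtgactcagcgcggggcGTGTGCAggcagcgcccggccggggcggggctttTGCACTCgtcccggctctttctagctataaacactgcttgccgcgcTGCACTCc
MT1X: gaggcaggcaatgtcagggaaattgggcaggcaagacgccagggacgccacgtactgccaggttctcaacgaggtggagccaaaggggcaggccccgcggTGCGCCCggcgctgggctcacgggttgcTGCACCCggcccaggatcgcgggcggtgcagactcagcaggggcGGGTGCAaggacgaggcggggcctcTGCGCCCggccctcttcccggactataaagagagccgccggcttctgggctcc
SLC30A1: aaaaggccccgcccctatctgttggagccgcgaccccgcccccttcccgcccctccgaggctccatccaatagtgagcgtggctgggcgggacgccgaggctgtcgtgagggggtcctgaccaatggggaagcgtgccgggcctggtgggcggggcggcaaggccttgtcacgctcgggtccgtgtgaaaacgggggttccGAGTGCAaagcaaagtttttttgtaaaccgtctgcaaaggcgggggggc
The MT2A window held 7 matches, the MT1X window 4 and the SLC30A1 window 1. Among all 35116 windows of that length in the table, 24.8% held at least 1 match, 0.370% at least 4 and 0.0313% at least 7. Windows of MTF1, SLC30A5 and SLC39A10 held 0 matches. Of the metallothioneins outside the 5 described, MT1H had 8 matches in its window, and MT1B and MT4 had 3 each. A match is a run of letters and was not tested as a binding site.

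In the same assembly the 5 metallothionein genes lie in 1 cluster on chromosome 16, in the order MT2A, MT1E, MT1F, MT1G and MT1X, with other metallothionein genes and pseudogenes between them. Their transcripts are close in sequence, and 8 of the 9 metallothionein probe sets carry the suffix _x_at, with which the maker marks probes that can bind several transcripts. One of the probe sets listed for MT1X, 204326_x_at, has a source accession that RefSeq gives to MT1L, a pseudogene of the same cluster. Every probe set is therefore given by its own name, and a value of a metallothionein probe set may hold signal from more than 1 gene. No level of a probe set is compared with that of another.

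Arrays of a group correlated with each other at 0.986 to 0.996 over the 21715 probe sets that passed the filter. Replicate 2 of Di at 12 h stood farthest from its group mean (a root mean square of 0.263 in log2 units, where the remaining arrays had 0.126 to 0.209). All 8 metallothionein probe sets that passed were highest in that array among the Di arrays at 12 h. The gap between the 3′ and 5′ actin probe sets, which reflects RNA integrity and labelling, was 1.22 ± 0.239 for Di arrays at 12 h and 1.71 ± 0.178 for control arrays (SD, n = 3 each, exact two-sided permutation test, p = 0.1, and 3 against 3 arrays allow no smaller p). The gap at 48 h was 1.41 ± 0.0776 for Di arrays and 1.33 ± 0.128 for control arrays (same exact test, p = 0.5). Each marker gene was read by its probe set of highest mean. Some other probe sets of KRT19, CDH1, COL1A1, DCN and LUM lay under a log2 value of 4 in all arrays. Of 8 renal and epithelial markers measured, 7 lay over a log2 value of 4 in all arrays, whereas 0 of 8 proximal tubule transport and brush border markers did so in any. Endothelial and leukocyte markers lay under 4 in all arrays (3 and 3 genes). Of 4 fibroblast markers, COL1A1, DCN and LUM lay over 4 in all arrays and PDGFRB under 4. The summed linear signal of these 4 was 1080 to 1140 at 48 h in Di arrays and 1926 to 2111 in control arrays, and at 12 h it was 4028 to 4799 in Di arrays and 3878 to 4198 in control arrays. At 48 h DCN, the highest of these 4, had a mean log2 value of 9.63 in Di and 10.60 in control. It therefore weighed most in their sum. LUM stood at 7.47 in Di and 8.19 in control, and COL1A1, whose arrays overlapped, at 6.94 and 7.10. The summed signal of the 8 renal and epithelial markers was also lower in Di at 48 h. It was 14274 to 15536 in Di arrays and 18069 to 19903 in control arrays, and the ranges overlapped at 12 h. The list was split, however. At 48 h the means of EPCAM (12.40 in Di, 13.05 in control), KRT19 (10.23, 11.42), CDH1 (6.74, 8.07) and CDH2 (8.13, 9.11) were lower in Di. Those of KRT8 (10.68 in Di, 10.55 in control), KRT18 (12.41, 12.21) and PAX8 (9.73, 9.34) were higher. The part of either sum in the results below was not tested. In such bulk RNA, fewer cells of a kind and less RNA per cell cannot be told apart.

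All 8 metallothionein probe sets that passed the filter fell with Di at 48 h, by 2.02-fold to 3.54-fold, and none of them passed the test at 12 h. At 48 h SLC39A10 fell as well, while SLC39A14, SLC30A1 and MTF1 rose and SLC30A5 did not pass the test. In total 9 member probe sets fell and 7 rose at 48 h, of 21 tested (limma, Benjamini-Hochberg adjusted p under 0.05 over 21715 probe sets). The background was high, as 46% of all probe sets were called at 48 h, 21.2% higher and 24.8% lower. The Di arrays did not overlap the control arrays at 48 h in 17 of 21 member probe sets, 8 above and 9 below, where 58% of all probe sets did not overlap (27.5% above and 30.6% below). At 48 h, leaving out any 1 array or changing the filter, the moderation or the normalisation left the direction and call of all 8 metallothionein probe sets as they were. The median change of the metallothionein probe sets at 48 h was -1.33 on the log2 scale, against a median of -0.01 over all probe sets.

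**Figure D1:**
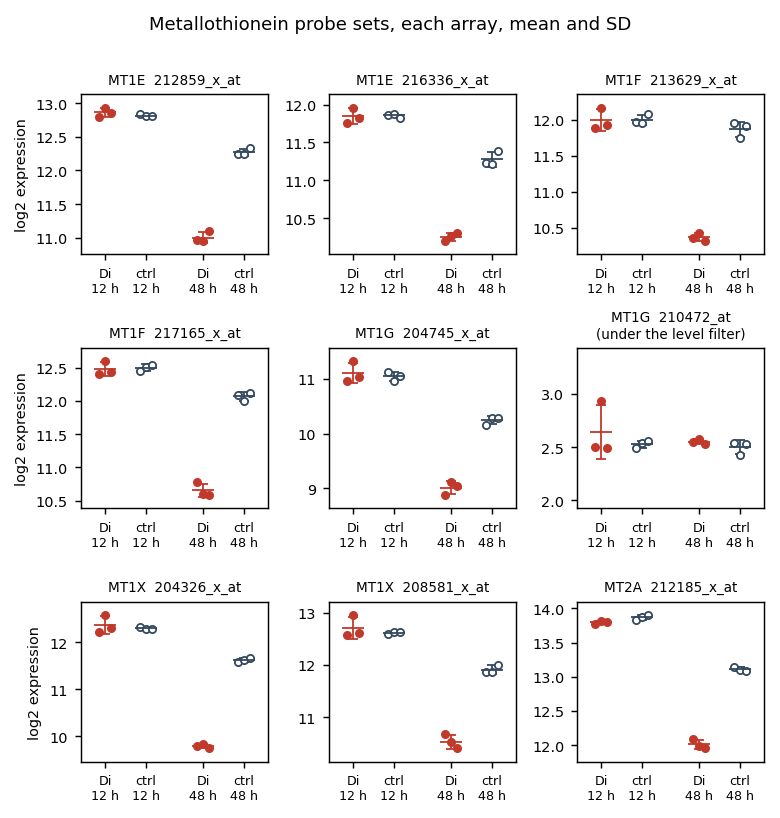
Log2 expression (vertical axis, scaled to each probe set) of the 9 metallothionein probe sets in each array, by treatment and time. Filled points are Di arrays, open points control arrays, and bars the mean and SD of 3 arrays. In 8 panels the Di arrays at 48 h lie below all other arrays, and MT1G 210472_at stays between 2.43 and 2.93 in every array.

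MT2A, in many tissues the most widely expressed human metallothionein, is measured by 212185_x_at. It stood at 12.09, 11.99 and 11.95 in Di at 48 h, against 13.14, 13.10 and 13.09 in control at 48 h. At 12 h its values were 13.77, 13.81 and 13.80 in Di and 13.83, 13.88 and 13.90 in control. The 3 Di arrays at 48 h were the lowest of all 12, and those of control at 48 h came next, with no overlap between any 2 of the 4 groups. The change with Di at 48 h was -1.10 ± 0.0639 (log2, SE), a fall of 2.15-fold (limma adjusted p = 1.73e-07). At 12 h the Di arrays lay just below the control arrays, by -0.08 (95% interval -0.22 to 0.06, adjusted p = 0.480). This was the only member probe set whose groups did not overlap at 12 h, where 32.7% of all probe sets did not overlap (12.6% above and 20.1% below).

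MT1X is one of the metallothioneins that zinc and cadmium induce in human cells. Its probe set 208581_x_at, whose accession is that of MT1X, read 10.67, 10.52 and 10.40 in Di at 48 h, against 11.87, 11.86 and 12.01 in control at 48 h. Its values at 12 h were 12.57, 12.96 and 12.61 in Di and 12.59, 12.63 and 12.63 in control. Di at 48 h was again lowest without overlap, and replicate 2 of Di at 12 h was the highest array. The fall at 48 h was 2.61-fold (log2 change -1.38 ± 0.109, adjusted p = 1.85e-06).

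The other probe set listed for MT1X, 204326_x_at, which carries the MT1L accession, read 9.80, 9.85 and 9.75 in Di at 48 h, against 11.58, 11.61 and 11.67 in control at 48 h. At 12 h it read 12.20, 12.57 and 12.29 in Di and 12.32, 12.28 and 12.28 in control. It had the largest fall of the metallothionein probe sets in this comparison, 3.54-fold (log2 change -1.82 ± 0.0912, adjusted p = 5.92e-08). The 95% intervals of the pair, -2.02 to -1.62 for 204326_x_at and -1.62 to -1.14 for 208581_x_at, meet at their edges, and the difference between them was not tested.

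MT1E, a metallothionein of the same metal-binding kind, has 2 probe sets. The first, 212859_x_at, stood at 10.96, 10.95 and 11.09 in Di at 48 h and at 12.24, 12.24 and 12.33 in control at 48 h. Its arrays at 12 h read 12.80, 12.94 and 12.86 in Di and 12.84, 12.81 and 12.81 in control. The groups at 12 h overlapped and those at 48 h did not, with a fall of 2.41-fold at 48 h (log2 change -1.27 ± 0.0700, adjusted p = 1.21e-07). The second, 216336_x_at, had the smallest fall among these probe sets, 2.02-fold (10.26 ± 0.0531 in Di and 11.27 ± 0.0968 in control at 48 h, SD, n = 3 each, limma adjusted p = 1.46e-06).

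MT1F was also read by 2 probe sets. For 213629_x_at the arrays at 48 h read 10.36, 10.43 and 10.32 in Di and 11.95, 11.74 and 11.90 in control. At 12 h they read 11.89, 12.17 and 11.93 in Di and 11.97, 11.95 and 12.08 in control. Control at 48 h overlapped Di at 12 h here and lay just below control at 12 h, and Di at 48 h was lowest, with a fall of 2.82-fold against its control (log2 change -1.50 ± 0.0916, adjusted p = 2.48e-07). With 217165_x_at the fall was 2.66-fold (10.65 ± 0.103 in Di and 12.07 ± 0.0656 in control at 48 h, SD, n = 3 each, limma adjusted p = 1.69e-07).

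MT1G, a metallothionein found in kidney, has 2 probe sets, of which 1 passed the filter. The probe set 204745_x_at, whose accession is that of MT1G, read 8.89, 9.11 and 9.05 in Di at 48 h, against 10.16, 10.29 and 10.28 in control at 48 h. Its arrays at 12 h read 10.96, 11.32 and 11.03 in Di and 11.13, 10.96 and 11.05 in control, so the fall at 48 h was 2.34-fold (log2 change -1.23 ± 0.104, adjusted p = 3.3e-06). The probe set 210472_at, the only metallothionein probe set among the members without the _x_at suffix, lay at 2.55, 2.58 and 2.53 in Di at 48 h and at 2.54, 2.43 and 2.53 in control at 48 h. It did not pass the filter and was under a log2 value of 4 in every array. Whether 204745_x_at reads MT1G or transcripts of its neighbours was not tested.

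The 8 probe sets that passed followed each other over the 12 arrays with Pearson r of 0.937 to 0.997 (28 pairs). As a description, these correlations rest on the same arrays, on 4 group means and on probes that may bind the same transcripts. Once each array was set against its group mean, the pairwise r ran from -0.38 to 0.89, with a median of 0.53.

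At 12 h no member probe set was called, 0 of 21 by limma, against 11.9% of all probe sets (4.9% higher and 6.97% lower). At an unadjusted p under 0.05 there was 1, SLC39A14 1555434_a_at. The metallothionein changes at 12 h lay between -0.08 and 0.10 on the log2 scale, and the widest of their 95% intervals, that of 208581_x_at, ran from -0.14 to 0.34. Without replicate 2 of Di at 12 h they lay between -0.09 and 0.01. The actin gap given above differed between Di and control at 12 h by -0.49, and its part was not tested.

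**Figure D2:**
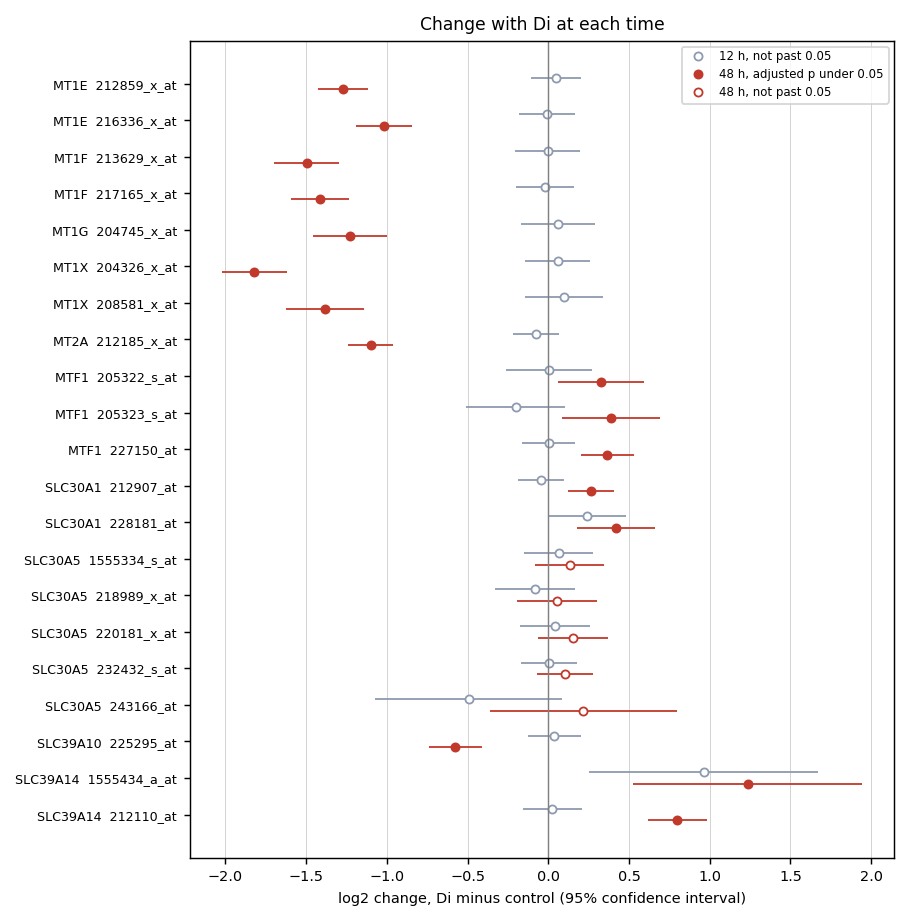
Log2 change, Di minus control (horizontal axis), with its 95% confidence interval for the 21 member probe sets at 12 h (grey) and at 48 h (red). Filled points passed an adjusted p of 0.05 and open points did not: no point is filled at 12 h, while at 48 h 9 lie to the left (the 8 metallothionein probe sets and SLC39A10) and 7 to the right.

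MTF1, the factor that senses zinc and drives metallothionein transcription, rose with Di at 48 h while the metallothioneins fell. Its probe set 227150_at read 7.00, 6.99 and 7.11 in Di at 48 h, against 6.67, 6.58 and 6.75 in control at 48 h. At 12 h the values were 6.78, 6.73 and 6.87 in Di and 6.86, 6.76 and 6.75 in control, which overlapped. The rise at 48 h was 1.29-fold (log2 change 0.37 ± 0.0748, adjusted p = 0.00200), and it was called in all 20 alternatives run for it. The other 2 probe sets gave rises of like size, 0.32 for 205322_s_at (adjusted p = 0.0474) and 0.39 for 205323_s_at (adjusted p = 0.0396). Those calls lay near the threshold: 205322_s_at passed in 8 of 20 alternatives (adjusted p from 0.0177 to 0.174) and 205323_s_at in 7 of 18 (0.0175 to 0.152), all with the same direction. Among the runs without 1 array, the change of 205322_s_at stood at 0.24 without replicate 2 of Di at 48 h, and that of 205323_s_at at 0.23 without replicate 1 of control at 48 h. These are transcript levels, and the activity of MTF1 depends on zinc binding, which arrays do not measure.

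SLC30A1 (ZnT1) sits in the plasma membrane and exports zinc, and like the metallothioneins it is a known target of MTF1. Its probe set 212907_at read 12.43, 12.37 and 12.44 in Di at 48 h, against 12.08, 12.21 and 12.15 in control at 48 h. At 12 h it read 11.77, 11.70 and 11.81 in Di and 11.79, 11.82 and 11.81 in control. Di at 48 h was the highest group without overlap, by 1.20-fold over its control (log2 change 0.26 ± 0.0654, adjusted p = 0.00638).

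The second SLC30A1 probe set, 228181_at, stood at 9.00, 9.10 and 9.22 in Di at 48 h and at 8.64, 8.82 and 8.62 in control at 48 h. It rose by 1.34-fold (log2 change 0.42 ± 0.110, adjusted p = 0.00902). At 12 h its change was 0.24 (95% interval from just under 0 to 0.48, adjusted p = 0.177), while 212907_at stood at -0.05 (adjusted p = 0.699). The third, 242716_at, lay under a log2 value of 4 in all arrays and was not tested. With Di at 48 h SLC30A1 rose by 2 probe sets while the metallothionein probe sets fell, and the part of MTF1 in either change was not tested.

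SLC30A5 (ZnT5) carries zinc into the early secretory pathway, where it works in a pair with SLC30A6. None of its 5 probe sets was called for Di at either time. At 48 h the changes lay between 0.05 (218989_x_at, 95% interval -0.20 to 0.30, adjusted p = 0.736) and 0.22 (243166_at, 95% interval -0.36 to 0.80, adjusted p = 0.544). For 1555334_s_at the arrays at 48 h did not overlap (8.43, 8.44 and 8.45 in Di and 8.34, 8.17 and 8.41 in control), with a change of 0.13 ± 0.0971 (adjusted p = 0.294). At 12 h 243166_at had a wide spread in Di, 6.32, 5.14 and 6.01 in Di against 6.43, 6.39 and 6.13 in control, and replicate 2 of Di was the low array (change -0.49 ± 0.263, adjusted p = 0.247). Without that array the change was -0.15.

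SLC39A10 (ZIP10) brings zinc in across the plasma membrane, and in mouse and zebrafish its transcript is held down by MTF1 when zinc is high. Its single probe set, 225295_at, read 8.60, 8.66 and 8.76 in Di at 48 h, against 9.26, 9.35 and 9.14 in control at 48 h. At 12 h the values were 10.88, 10.85 and 10.83 in Di and 10.80, 10.84 and 10.81 in control. Both groups at 48 h lay below both at 12 h, and Di at 48 h lay below its control by 1.49-fold (log2 change -0.58 ± 0.0747, adjusted p = 8.32e-05). At 12 h the change was 0.04 (95% interval -0.13 to 0.20, adjusted p = 0.792).

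SLC39A14 (ZIP14) imports zinc and also manganese and iron that is not bound to transferrin. Its probe set 212110_at read 12.28, 12.16 and 12.38 in Di at 48 h, against 11.44, 11.46 and 11.53 in control at 48 h. At 12 h it read 9.92, 9.94 and 9.88 in Di and 9.84, 9.80 and 10.03 in control, which overlapped. Di at 48 h was the highest group, 1.74-fold over its control (log2 change 0.80 ± 0.0825, adjusted p = 1.48e-05).

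A second SLC39A14 probe set, 1555434_a_at, stood at 8.76, 8.64 and 8.89 in Di at 48 h and at 7.53, 7.54 and 7.51 in control at 48 h, a rise of 2.36-fold (log2 change 1.24 ± 0.322, adjusted p = 0.00862). At 12 h it read 5.10, 3.66 and 5.00 in Di and 3.91, 3.78 and 3.19 in control, values around the floor of 4. There the control mean lay under the floor, and the Di mean was 1.50-fold over the floor. This is not a bound, since replicate 2 of Di, at 3.66, also lay under the floor and within the control arrays. The difference did not pass (log2 change 0.96 ± 0.322, adjusted p = 0.0777). Replicate 2 of Di at 12 h was its low array, and without it the change was 1.43 (adjusted p = 0.00386). The third probe set, 1555433_at, lay under 4 in all arrays and was not tested.

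**Figure D3:**
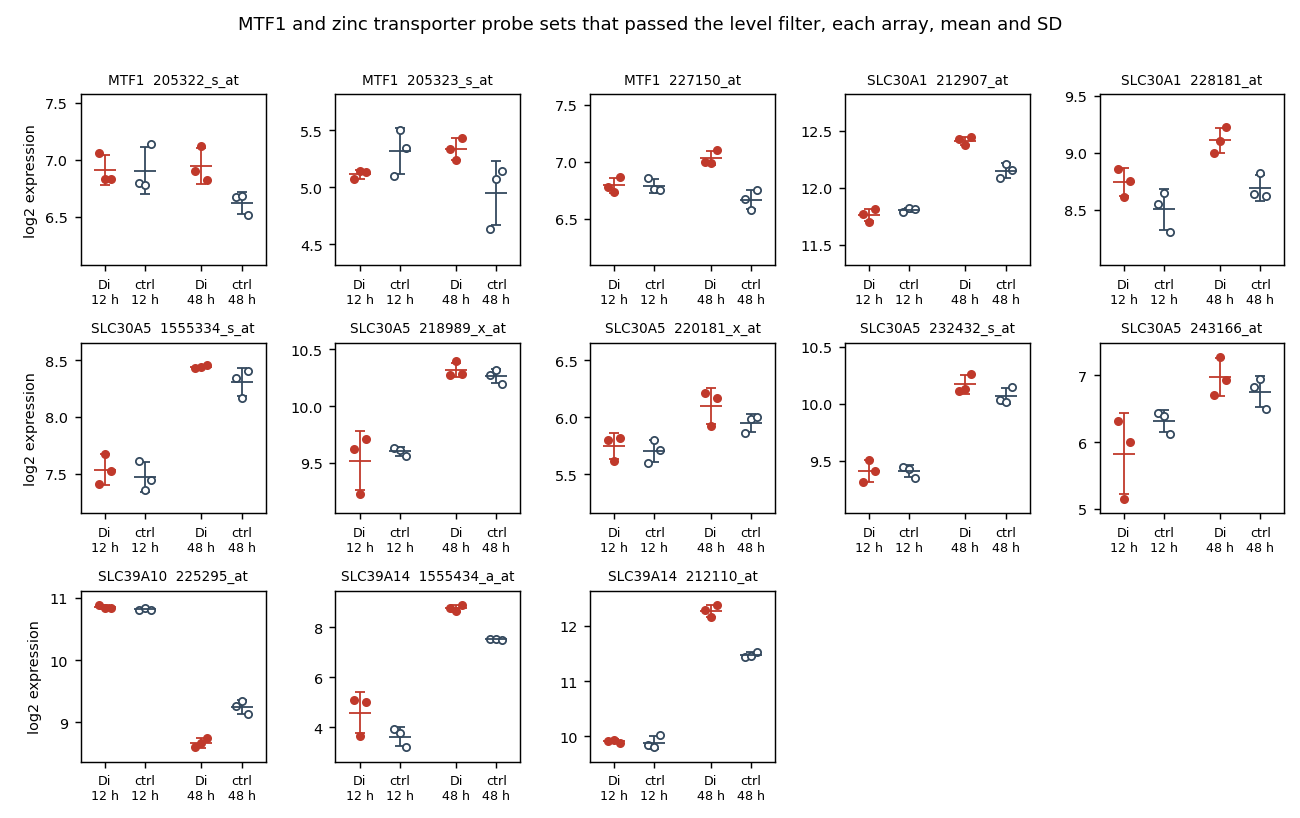
Log2 expression (vertical axis, scaled to each probe set) of MTF1 and the zinc transporters in each array, for the 13 probe sets that passed the filter. Filled points are Di arrays, open points control arrays, and bars the mean and SD of 3 arrays. SLC39A10 was lowest and SLC39A14 highest in Di at 48 h, and the SLC30A5 arrays of both treatments overlap at 48 h in 4 of 5 panels.

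Most of these genes also changed with time in culture, with vehicle alone. In control at 48 h against control at 12 h, 9 member probe sets were lower and 6 higher, where 47.7% of all probe sets were called, 25.4% lower and 22.4% higher. Of the metallothionein probe sets 7 fell, by log2 values from -0.43 (217165_x_at) to -0.80 (204745_x_at). MT2A fell with a log2 change of -0.76 ± 0.0639 (adjusted p = 3.77e-06), and MT1F 213629_x_at, at -0.14, did not pass (adjusted p = 0.251). SLC39A10 fell by 2.96-fold (log2 change -1.57 ± 0.0747), more than its change with Di at 48 h.

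SLC39A14 rose with time in control cells, 3.01-fold by 212110_at (log2 change 1.59 ± 0.0825, adjusted p = 1.16e-07) and at least 11.5-fold by 1555434_a_at, whose mean at 12 h lay under the floor. SLC30A5 rose by 3 of 5 probe sets, with log2 changes of 0.66 to 0.83. SLC30A1 rose by 0.34 (212907_at, adjusted p = 0.00131), while 228181_at stood at 0.19 (adjusted p = 0.179). MTF1 was lower by 205323_s_at (-0.37, adjusted p = 0.0473). That call did not survive the loss of replicate 1 of control at 48 h, where the change was -0.21 (adjusted p = 0.184), nor most of the other alternatives.

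In Di cultures, 19 of 21 member probe sets changed between 48 h and 12 h, 10 higher and 9 lower (of all probe sets 60.3% were called, 30.1% higher and 30.3% lower). These values share the arrays of the comparisons above and are given only beside them. MT2A was 3.44-fold lower at 48 h in Di, against 1.69-fold in control, and MT1X 208581_x_at 4.54-fold lower in Di, against 1.63-fold in control. SLC39A14 212110_at was 5.14-fold higher at 48 h in Di, against 3.01-fold in control.

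**Figure D4:**
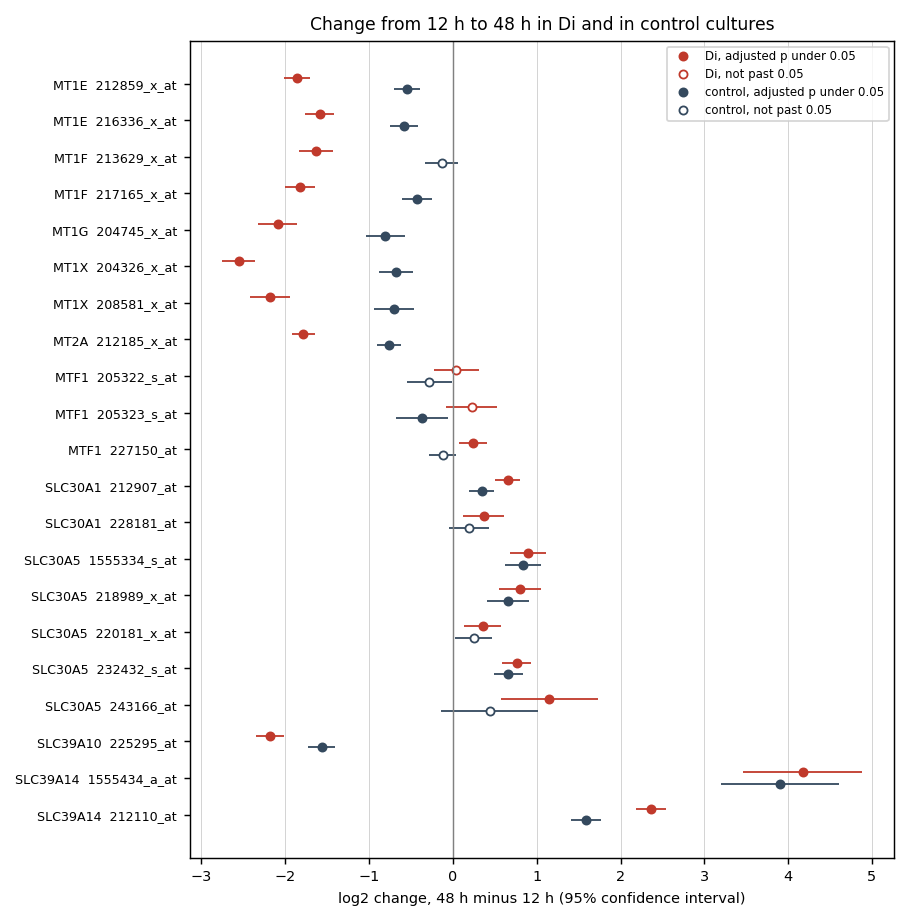
Log2 change, 48 h minus 12 h (horizontal axis) with its 95% confidence interval for the 21 member probe sets, in Di cultures (red) and in control cultures (dark). Filled points passed an adjusted p of 0.05. The metallothioneins, SLC39A10 and SLC39A14 have changes of the same sign in both cultures, larger in Di.

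The difference between the Di changes at 48 h and at 12 h was tested as an interaction, and 13 of 21 member probe sets were called, 9 lower and 4 higher (of all probe sets 33.7% were called, 17.2% lower and 16.5% higher). The 8 metallothionein probe sets had interaction values from -1.01 (MT1E 216336_x_at) to -1.88 (MT1X 204326_x_at). For MT2A it was -1.03 ± 0.0904 (adjusted p = 1.2e-05). SLC39A10 had -0.61 ± 0.106 (adjusted p = 0.00119) and SLC39A14 212110_at 0.77 ± 0.117 (adjusted p = 0.000501). The other SLC39A14 probe set that was tested, 1555434_a_at, did not pass (0.27, adjusted p = 0.691). Its value was -0.19 without replicate 2 of Di at 12 h. For SLC30A1 only 212907_at passed (0.31, adjusted p = 0.0243), and it kept its call in 15 of 20 alternatives (adjusted p from 0.00443 to 0.0738). For MTF1 227150_at passed (0.36, adjusted p = 0.0218, called in 16 of 19 alternatives), and so did 205323_s_at (0.59, adjusted p = 0.0382, called in 6 of 17). No SLC30A5 probe set passed.

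The rest of these families was read from lists of genes named for the same roles. Of 12 other metallothionein genes and pseudogenes, 5 had a probe set and 4 passed the filter. At 48 h 3 of these 4 fell with Di and 0 rose, with a median log2 change of -1.10 (of all probe sets 24.8% were lower). They were MT1M (6.69 ± 0.112 in Di and 7.91 ± 0.112 in control, SD, n = 3 each), MT1H and MT1HL1, an MT1H-like gene. The MT1M probe set 217546_at is the only one of these 3 without the _x_at suffix, and it fell 2.33-fold (log2 change -1.22 ± 0.0852, limma adjusted p = 7.03e-07).

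Of the other SLC30 exporters, 5 genes passed the filter with 9 probe sets, of which 1 rose and 3 fell with Di at 48 h (median log2 change -0.40). Together these 4 of 9 are near the background of 46% called (21.2% higher and 24.8% lower). SLC30A2 (ZnT2), which loads zinc into vesicles and is itself a metal-responsive gene, read 6.91, 6.47 and 6.66 in Di at 48 h, against 8.83, 8.67 and 8.89 in control at 48 h. It fell 4.34-fold (log2 change -2.12 ± 0.108, adjusted p = 6.7e-08), more than any metallothionein probe set among the members. This fall rests on 1 probe set, and the other one listed for the gene was not called. The RefSeq promoter window of SLC30A2 held 3 matches to the metal response element core, where 1.58% of all windows held at least 3. Windows of SLC30A4, which fell, and of SLC30A6, SLC39A3 and SLC39A6, which rose, held 1 match each. The window of SLC30A7, which fell, held 0. SLC39A8 and SLC39A13, which fell, had several windows, each with 0 or 1 match. The windows of SLC39A9, which rose, held 0. Whether such matches bear on the changes was not tested. SLC30A4, a vesicular exporter, fell with a log2 change of -0.55 ± 0.158 (adjusted p = 0.0140). SLC30A7, of the Golgi, fell by 226217_at (-0.47, adjusted p = 0.00267), and its other 2 probe sets did not pass (-0.41 and -0.40). SLC30A6, the partner of SLC30A5, rose by 243643_x_at (0.43, adjusted p = 0.0108), while 226161_at stood at 0.16 (adjusted p = 0.170). At 12 h, where 4.9% of all probe sets were higher and 6.97% lower, 1 of the 9 rose, SLC30A7 by 239596_at, at least 2.96-fold (adjusted p = 0.00219), a bound because its control mean lay under the floor. The other 2 probe sets of SLC30A7 were not called at 12 h. SLC30A9 fell at 12 h by 202614_at (-0.26, adjusted p = 0.0388).

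Of the other SLC39 importers, 9 genes passed with 15 probe sets, of which 6 rose and 4 fell with Di at 48 h (median log2 change 0.27), against 21.2% higher and 24.8% lower among all probe sets. SLC39A8 (ZIP8), which carries zinc, manganese and cadmium into cells and is the closest relative of SLC39A14, fell by both probe sets that passed. By 209267_s_at it read 8.29, 8.56 and 8.50 in Di at 48 h, against 9.46, 9.52 and 9.60 in control at 48 h, a fall of 2.10-fold (log2 change -1.07 ± 0.0948, adjusted p = 4.5e-06). SLC39A8 and SLC39A14 thus changed in opposite directions. SLC39A6 (ZIP6), the closest relative of SLC39A10 and its partner in a complex, rose by all 4 of its probe sets (0.27 to 0.69), while SLC39A10 fell.

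SLC39A4, the importer of intestinal zinc uptake, fell with a log2 change of -0.53 ± 0.0824 (adjusted p = 0.000299). SLC39A13, of the secretory pathway, fell by 225277_at (-0.29) and stood at 0.03 by 1552295_a_at (adjusted p = 0.885). SLC39A9 rose by 222445_at (0.56, adjusted p = 0.000140), and 217859_s_at stood at 0.82 (adjusted p = 0.0542). SLC39A3 rose by 0.30 (adjusted p = 0.0239). At 12 h 1 of the 15 rose, SLC39A6 1556551_s_at at 0.65, and 0 fell, by limma (5 had an unadjusted p under 0.05, and 4.9% of all probe sets were higher and 6.97% lower).

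**Figure D5:**
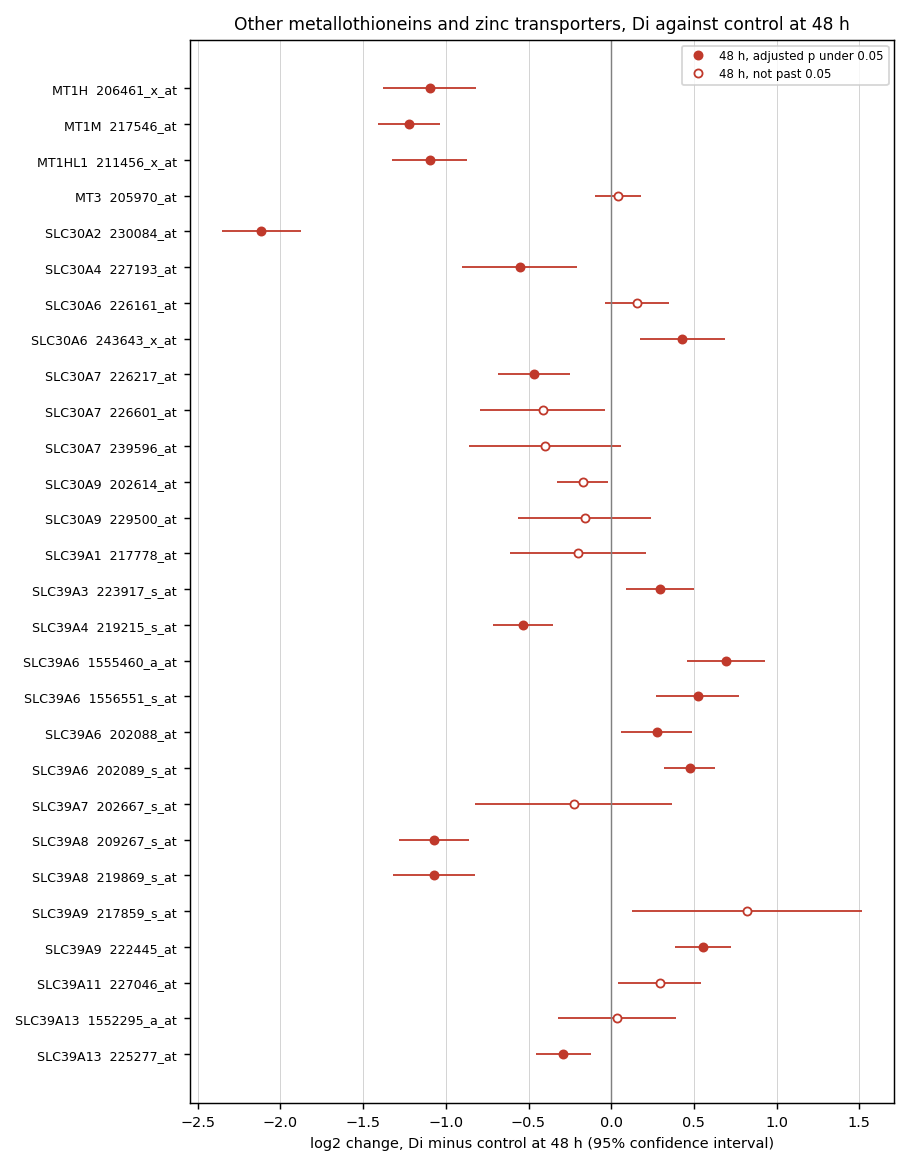
Log2 change, Di minus control at 48 h (horizontal axis), with its 95% confidence interval for the 28 probe sets of other metallothioneins, SLC30 exporters and SLC39 importers that passed the filter. Filled points passed an adjusted p of 0.05. SLC30A2 lies farthest to the left at -2.12, and the MT1H, MT1M and MT1HL1 probe sets lie between -1.22 and -1.10.

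Finally, the genes whose log2 values over the 12 arrays were most like those of MT2A, MT1X, SLC30A1 and MTF1 were listed, by Pearson r among 10616 other genes and with no test. All these values share the same 12 arrays and their 4 group means. MT2A was most like the replicative helicase subunits MCM6, MCM5 and MCM2 (r from 0.997 to 0.998), RRM2, a subunit of ribonucleotide reductase, and the spindle protein NUSAP1 (both 0.996). MT1X 208581_x_at was most like NRM, TMEM97, the histone-binding protein RBBP7, MT1H and SQOR (0.994 to 0.998). SLC30A1 212907_at was most like SLC22A15, the coatomer subunit ARCN1, the lysosomal protein LAMP3, SGTB and RNF149 (0.989 to 0.991). For MTF1 205322_s_at the highest r was 0.867, with RBBP5, followed by FAM83B, AGO2, RABGAP1L and NUAK1 (0.848 to 0.862).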

How the data were processed

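Expression was measured on 12 arrays (4 groups of 3). The deposited values are log2 expression per probe set, which the authors made with GCRMA, per the submitters' processing notes (version not given). The range of values was checked. With arrays there is no read depth, and precision rests on their number. Of 54675 probe sets, 62 controls were left out, and 21715 passed the filter (log2 over 4 in 3 arrays or more). The platform table gave 1 gene to 41097 probe sets, several to 1801 and none to 11777, and symbols were updated through RefSeq (GRCh38.p14). All arrays entered a single linear model with a mean for each group in limma 3.58.1 (R 4.3.3, lmFit and eBayes, two-sided), with Benjamini-Hochberg adjustment over 21715 probe sets. Figures used matplotlib 3.10.9. A fold against a mean under 4 is the brighter mean against 4. The genes named are all members with all probe sets, genes of the lists with a called probe set, and the 5 genes most like 4 members. Members and lists were chosen with earlier results of these data known. In simulated data for Di against control at 48 h (21715 probe sets, 200 changed), 80.5% of log2 changes of 1 and 28.5% of changes of 0.5 were recovered. Of the calls, 8% were false with changes of 1 and 0% with changes of 0.5. In the data 9983 probe sets were called at 48 h, far more than were changed here, so these rates do not carry over to them. The labels call replicates biological without saying how they were kept apart, so p-values measure the spread between these arrays. Alternatives were other filters, moderation, scaling, probe set choices, fits to 6 arrays, the replicate number as a block and leaving out each array.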

Additional observations from a re-analysis of the deposited data

Results flagged for a closer look

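The change with Di differed between 48 h and 12 h by the interaction test in 13 of 21 probe sets, and each value here is the change at 48 h minus that at 12 h (log2). In the metallothioneins it was -1.32 (212859_x_at) and -1.01 (216336_x_at) for MT1E, and -1.49 (213629_x_at) and -1.39 (217165_x_at) for MT1F. MT1G had -1.29 (204745_x_at), and MT1X had -1.88 (204326_x_at) and -1.48 (208581_x_at). For MT2A the value was -1.03 (212185_x_at). MTF1 had 0.59 (205323_s_at) and 0.36 (227150_at). Among the transporters the value was 0.31 for SLC30A1 (212907_at), -0.61 for SLC39A10 (225295_at) and 0.77 for SLC39A14 (212110_at). Groups of 3 arrays are too small for the test of single outlying samples.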

How the results depend on the processing

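For Di against control at 48 h, 16 member probe sets were called, and leaving out 1 array gave 14 to 16. The same counts were 0 (0 to 1) for Di against control at 12 h, 13 (10 to 13) for the interaction, 15 (14 to 16) for control at 48 h against control at 12 h and 19 (17 to 19) for Di at 48 h against Di at 12 h. The 1 call at 12 h, SLC39A14 1555434_a_at, came without replicate 2 of Di at 12 h. With 1 probe set a gene, 10 were tested, and 9 were called for Di at 48 h, 8 for the interaction, 9 for control over time and 9 for Di over time. Without _x_at and _s_at probe sets, 7 were tested and 6, 4, 4 and 7 were called. None of the 8 metallothionein probe sets that passed enters this run, as all carry _x_at, so it does not check their fall. For Di at 48 h its calls were 5 higher and 1 lower. With the replicate block the counts were 0 for Di at 12 h, 15 for Di at 48 h, 12 for the interaction, 15 for control over time and 19 for Di over time. Within a time, the correlation of same-numbered Di and control arrays in their deviations from the group means ran from -0.27 to 0.15. That of arrays with different numbers ran from -0.31 to 0.32. Same-numbered arrays were not compared across times, and groups of 3 arrays cannot show that pairing was absent. No called value changed sign in any alternative. Of 425 single values at 48 h, 23 lost their call, all of them MTF1. Of all probe sets, 2579 were called at 12 h, 1065 of them higher, and with quantile normalization 2581, 1359 of them higher. That count was 1699 with the replicate block, 784 with only the 6 arrays compared, 1493 when replicate 3 of Di at 12 h was left out, 1166 when replicate 2 of control at 12 h was, and 1264 when replicate 3 of that control was. With 1 probe set a gene, or without _x_at and _s_at probe sets, 1453 and 1153 were called at 12 h (2579 with all), 5413 and 5790 at 48 h (9983), 4067 and 4137 for the interaction (7308), 5621 and 5663 for control over time (10363) and 6943 and 7443 for Di over time (13105). Levels near the floor of 4, as in SLC39A14 1555434_a_at at 12 h, give bounds at most.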

Other observations

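Glucocorticoid-responsive genes were looked at because hydrocortisone, a known inducer of metallothioneins, was in the medium of all groups. No group lacked it, and its part in the metallothionein changes was not tested. Of 17 probe sets of 8 genes that passed the filter, 13 were lower and 3 higher with Di at 48 h (median over all probe sets -0.01, with 24.8% lower and 21.2% higher). SGK1, a kinase that regulates sodium transport, read 8.52, 8.46 and 8.55 in Di at 48 h, against 11.91, 11.95 and 11.92 in control at 48 h, a fall of 10.7-fold (log2 change -3.42 ± 0.0645, limma adjusted p = 4.35e-11). FKBP5, a cochaperone of the glucocorticoid receptor, fell by its 3 probe sets (-1.24 to -1.15), and TSC22D3, the leucine zipper protein GILZ, by both probe sets that passed (-0.94 and -1.72). The 3 that rose were the phosphatase DUSP1 by 2 probe sets (1.94 and 1.76) and ERRFI1, an inhibitor of the EGF receptor (0.52). Also lower were glutamine synthetase, GLUL, by 3 probe sets (-0.66 to -0.38), the transcription factor TFCP2L1 by 3 (at least 4.55-fold by 227642_at, whose Di mean lay under the floor) and the transcription factor CEBPD by 213006_at (at least 2.25-fold, for the same reason). In control cells at 48 h against 12 h, 4 of the 17 were higher and 7 lower (median log2 change -0.29), where 22.4% of all probe sets were higher and 25.4% lower. At 12 h 2 of the 17 were higher with Di and 1 lower, against 4.9% higher and 6.97% lower among all probe sets.

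Of 17 probe sets of 11 copper-handling genes, 5 rose and 5 fell with Di at 48 h, against 21.2% higher and 24.8% lower among all probe sets. SLC31A1, the high-affinity copper importer, rose by its 3 probe sets, with 203971_at at 10.12, 10.36 and 10.09 in Di at 48 h and 9.22, 9.25 and 9.16 in control at 48 h (1.97-fold, log2 change 0.98 ± 0.0819, limma adjusted p = 2.9e-06). SOD1, the cytosolic copper and zinc superoxide dismutase, rose by 0.39 (adjusted p = 0.00193), and so did COX17, a copper chaperone for mitochondria (0.72, adjusted p = 0.0443). SCO2 and COX11, which bring copper to cytochrome oxidase, were lower, with a log2 change of -0.59 for SCO2 and of -1.28 to -0.33 for 3 of 4 probe sets of COX11. COMMD1, a regulator of copper export, fell as well (-0.45, adjusted p = 0.00574).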
